A study of Mus musculus with 115 samples.

Results

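The small heat shock proteins are a family of chaperones of low molecular mass, and 7 genes of the family that are known from heart and skeletal muscle were followed here: Cryab, Hspb1, Hspb2, Hspb3, Hspb6, Hspb7 and Hspb8. The members were chosen by gene symbol, as the rows of the count tables whose gene was 1 of the 7. Of these, 5 had an amplicon, 1 each, among 23930 amplicons in the tables. Hspb1 and Hspb8 had no amplicon under their symbol or a RefSeq synonym, and were not analysed here. All 5 measured members passed the filter on low counts, which left 15403 genes tested.

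Small heat shock proteins bind partly unfolded proteins without using ATP, and hold them until other chaperones refold them or hand them to degradation. In striated muscle they sit on the contractile and filament apparatus, where their clients include desmin, filamin C, titin and actin. Cryab encodes alpha-B-crystallin, the chaperone of desmin filaments, whose mutations cause desmin-related myopathy. Hspb6 encodes Hsp20, a target of protein kinase A in heart muscle. Hspb7 encodes the cardiovascular member, which binds filamin C at the Z-disc. Hspb2 and Hspb3 encode a pair that assembles into a common complex in muscle. Several family genes can be induced through heat shock factor, while their level in resting muscle follows the muscle differentiation programme.

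The samples were hearts of C57BL/6JEiJ mice (wild type), of C57BL/6JEiJ Ant1-/- mice (knockout) and of C57BL/6JEiJ Ant1-/- ND6P25L mice (knockout ND6). Ant1, whose gene symbol is Slc25a4, is the ADP/ATP exchanger of the mitochondrial inner membrane in heart and muscle, and ND6, encoded in mitochondrial DNA, belongs to respiratory complex I. By their labels, all mice of the groups described carried a vector given into the pericardium at 2.5e+11 vg, so none is labelled uninjected. The vector was either AAV2/9Des-Gfp (control vector) or AAV2/9Des-Gfp-mAnt1 (Ant1 vector). The labels do not explain Des in the vector names. Tissue was taken between 1 and 12 months after injection, and the labels do not give the month of a heart. With the control vector there were 4 wild type, 3 knockout and 3 knockout ND6 hearts. With the Ant1 vector there were 3 wild type, 4 knockout and 3 knockout ND6 hearts. In these groups control vector hearts have the title code NI and Ant1 vector hearts the code IN, which the labels do not explain. Another 2 knockout ND6 hearts, 61 and 91, have a treatment label that names the control vector and the title code IN. They were kept apart. Hearts are called by the number in their title, which the labels do not explain, so p-values measure the spread between hearts read in this way.

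RNA was read with AmpliSeq, an assay that amplifies 1 short stretch per gene, in 110 libraries grouped into 22 hearts with 16827518 to 54779297 reads per heart. Levels are CPM, a heart's reads of a gene scaled to a common library size with TMM factors, and because amplicons differ in efficiency they are compared between hearts and not between genes. Slc25a4 stood at 8464 to 11380 CPM in wild type hearts, at 0.219 to 2.03 CPM in control vector hearts of both knockout genotypes and at 174 to 241 CPM in knockout hearts with the Ant1 vector. Among the knockout ND6 hearts with the Ant1 vector, hearts 5 and 37 had 66.7 and 55.6 CPM, below the knockout hearts with that vector. Heart 8 had 0.732 CPM, at the level of the control vector hearts, and is called the heart labelled Ant1 vector. The labelled tissue matched its markers, with 10 cardiomyocyte genes summing to 82670 to 96830 CPM in the 22 hearts.

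The 5 genes lie at 4 places in the mouse genome (RefSeq, GRCm38.p6). Cryab spans chr9:50745951-50756636 on the plus strand. Hspb2 lies at chr9:50751072-50752354 on the minus strand, inside the RefSeq span of Cryab. The 3 shorter transcripts of Cryab in the GENCODE annotation of the same build start at 50752907 or later, past Hspb2, and the longest has its first exon within it. The sources used here give neither the place of the amplicons nor whether counting used the strand, so reads from a stretch shared by both genes could not be told apart. Hspb3 is a gene of 1 exon at chr13:113662896-113663676 on the minus strand, Hspb6 spans chr7:30552535-30555443 on the plus strand, and Hspb7 spans chr4:141420779-141425310 on the plus strand.

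RefSeq promoter windows were at hand for 3 of the 5 genes, and they are shown because Hspb6 and Hspb7 moved together in the hearts while Hspb3 did not move with Hspb7. Each window of 250 bases before the start was searched on both strands for the paired heat shock element cores GAANNTTC and TTCNNGAA, for TATAAA, for the CArG box and for the MEF2 site, and matches are in capitals. A match is a description of letters and not a bound site. The first sequence is the whole Hspb7 window, chr4:141420529-141420778 on the plus strand, the second is a stretch of 30 bases from the window of the downstream Hspb6 start, chr7:30553170-30553199 on the plus strand, and the third is the whole Hspb3 window, chr13:113663677-113663926 on the minus strand.
Hspb7: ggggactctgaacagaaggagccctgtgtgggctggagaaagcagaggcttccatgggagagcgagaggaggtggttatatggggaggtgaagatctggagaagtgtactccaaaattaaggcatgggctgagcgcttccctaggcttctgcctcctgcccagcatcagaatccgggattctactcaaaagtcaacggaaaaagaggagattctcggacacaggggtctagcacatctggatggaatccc
Hspb6: aagtaattattGAAGTTTCtaaataaggaa
Hspb3: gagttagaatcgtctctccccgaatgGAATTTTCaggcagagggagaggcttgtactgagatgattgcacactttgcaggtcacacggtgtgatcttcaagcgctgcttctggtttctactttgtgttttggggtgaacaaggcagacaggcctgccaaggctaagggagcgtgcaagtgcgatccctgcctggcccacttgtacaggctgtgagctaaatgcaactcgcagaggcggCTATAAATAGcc
The Hspb7 window held none of the letters searched. The Hspb6 window held GAAGTTTC, a match to GAANNTTC, 120 bases before its start and TATAAA 29 bases before it, while the window of the upstream Hspb6 start held no match. In the Hspb3 window, GAATTTTC matched GAANNTTC at 224 bases before the start, and a MEF2 site began 12 bases before it, overlapping TATAAA. Among 32851 RefSeq windows of the same length, 6.69% held GAANNTTC, 7.17% held TTCNNGAA, 12.4% held TATAAA, 1.47% held the CArG box and 2.92% held the MEF2 site.

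The first comparison asked how the family differs between knockout and wild type hearts, both with the control vector. Cryab, Hspb6 and Hspb7 were higher in the knockout, by 1.49-fold, 1.87-fold and 1.53-fold, and Hspb2 and Hspb3 did not pass the test. These are 3 of 5 members called higher at an adjusted p under 0.05 and none lower, where 8.19% of all genes tested were called higher and 6.23% lower. The same 3 had no overlap between the hearts, which held for 14.0% of all genes in that direction. The median log2 change over the 5 members was 0.575, against -0.03 over all genes tested.

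Hspb6, the Hsp20 gene, stood at 1428, 1464, 1239 and 1399 CPM in wild type hearts 23, 24, 25 and 70 and at 2350, 2783 and 2639 CPM in knockout hearts 35, 36 and 38. The lowest knockout heart lay far above the highest wild type heart. The group means were 1382 ± 99.1 CPM (SD, n = 4) and 2591 ± 221 CPM (SD, n = 3), a log2 difference of 0.91 with a standard error of 0.10 (edgeR quasi-likelihood test, adjusted p = 1.71e-06). By p-value Hspb6 ranked 56 among the genes tested.

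Hspb7, the filamin C partner, stood at 3421, 3235, 3092 and 3650 CPM in the wild type hearts and at 5146, 5572 and 4672 CPM in the knockout hearts. All knockout hearts were higher than all wild type hearts. The means were 3349 ± 241 CPM (SD, n = 4) and 5130 ± 450.2 CPM (SD, n = 3), with a log2 difference of 0.615 and a standard error of 0.08 (edgeR, adjusted p = 3.48e-05).

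Cryab, the desmin chaperone, stood at 1924, 2077, 1984 and 1939 CPM in the wild type hearts and at 2753, 2912 and 3187 CPM in the knockout hearts. The wild type hearts kept within a narrow band below the lowest knockout heart. The means were 1981 ± 68.9 CPM (SD, n = 4) and 2951 ± 219 CPM (SD, n = 3), with a log2 difference of 0.575 and a standard error of 0.09 (edgeR, adjusted p = 0.000157).

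Hspb2, whose gene lies beside Cryab, stood at 127.8 to 154.9 CPM in the 4 wild type hearts and at 123.9 to 155.3 CPM in the 3 knockout hearts, ranges that cover each other. Its log2 difference was 0.04, with a 95% interval from -0.143 to 0.225. Hspb3, its partner, stood at 16.9 to 23.9 CPM in wild type and at 22.7 to 23.3 CPM in knockout hearts. The knockout hearts lay inside the wild type range, and the log2 difference was 0.15, with an interval from -0.07 to 0.36. The calls on Cryab, Hspb6 and Hspb7 in this comparison held in all 19 alternative analyses, with adjusted p at most 0.00775.

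**Figure D1:**
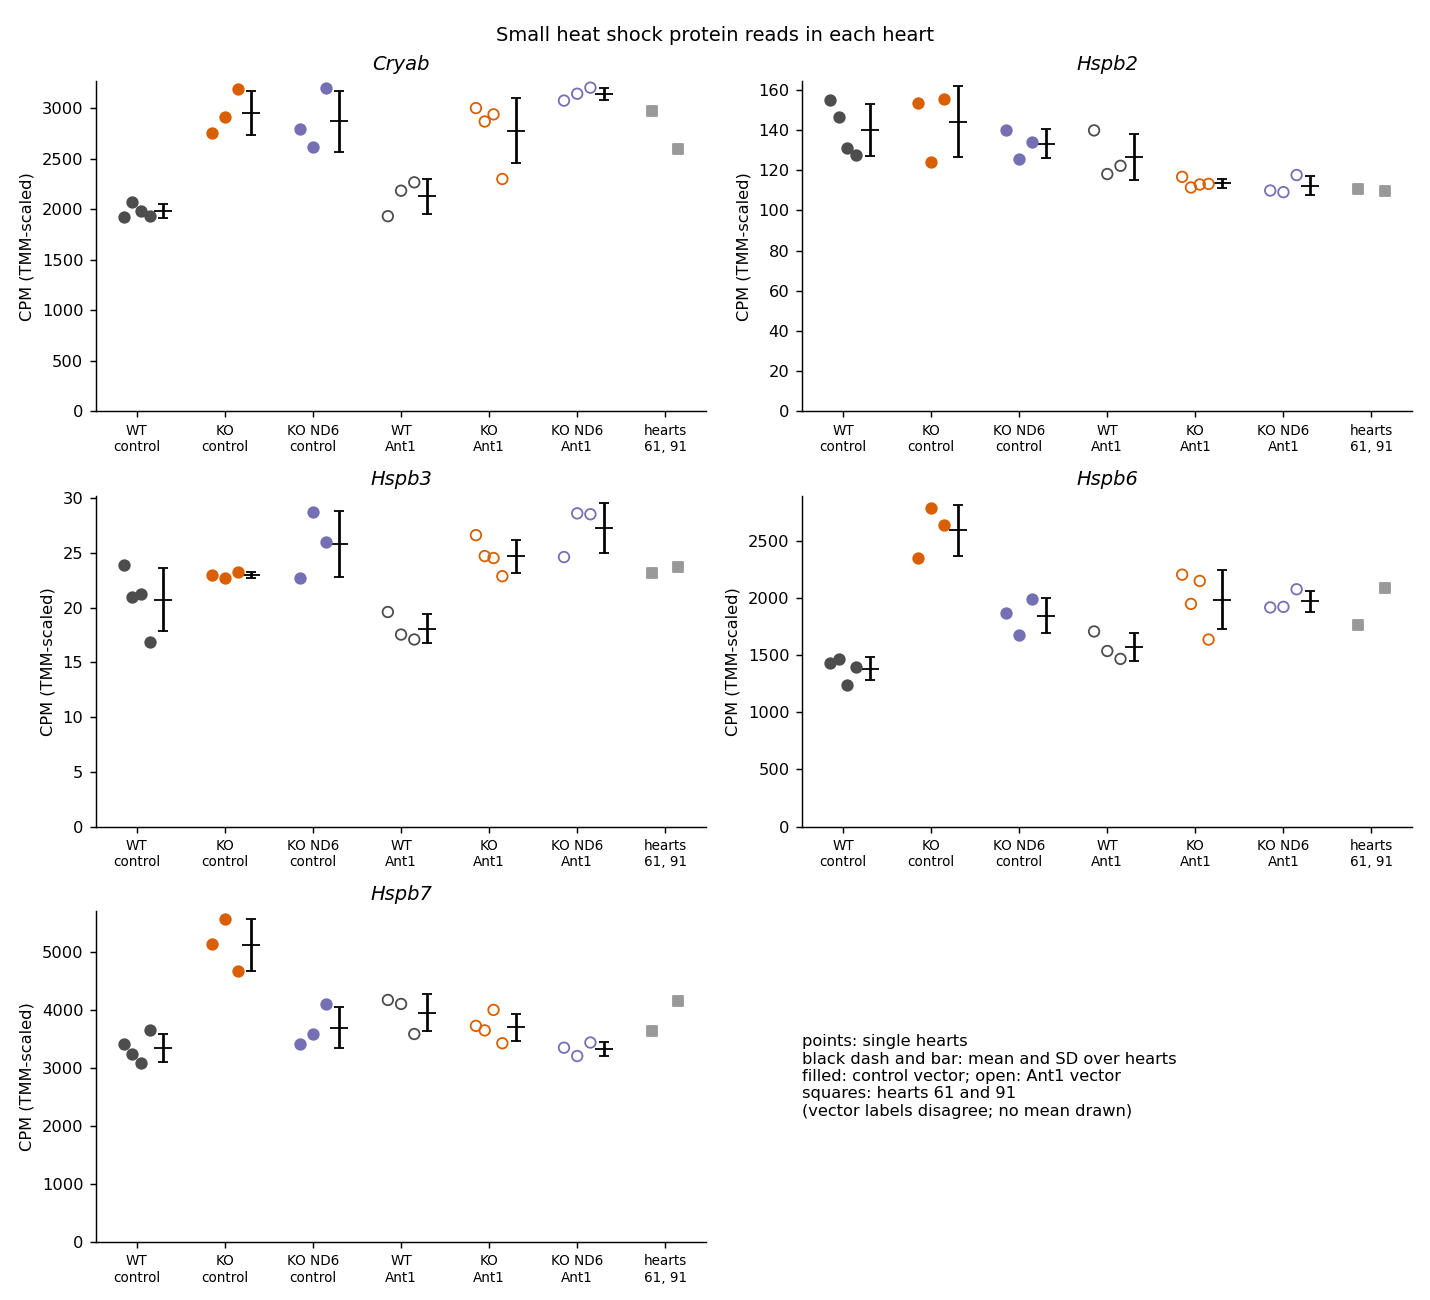
CPM of each measured small heat shock protein gene (vertical axis, from 0) in single hearts (points) by genotype and vector (horizontal axis), with the mean and SD over hearts as a black dash and bar, except for hearts 61 and 91 (squares), for which no mean is drawn. The control vector knockout hearts stand above all wild type control hearts for Cryab, Hspb6 and Hspb7, and for Hspb6 and Hspb7 they also stand above all other hearts.

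The ND6 change on top of the knockout went with a smaller difference from wild type for Hspb6 and Hspb7 and not for Cryab. Against wild type hearts with the control vector, knockout ND6 hearts had 3 of 5 members called higher, Cryab, Hspb6 and Hspb3, and none lower, where 6.71% of all genes were called higher and 5.97% lower. Directly against the knockout, with the same vector, 2 of 5 members were called lower, Hspb6 and Hspb7, and none higher, where 0.519% of all genes were called lower and 0.539% higher. Neither gene's hearts overlapped in that comparison, which held for 13.9% of all genes in that direction. These comparisons share control hearts, so their values are given side by side and not as separate support.

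Hspb7 stood at 3409, 3582 and 4099 CPM in knockout ND6 hearts 20, 21 and 22, below each of the 3 knockout hearts and, but for heart 22, inside the wild type range. The mean was 3697 ± 359 CPM (SD, n = 3), 1.39-fold lower than in the knockout (edgeR, log2 difference -0.47, standard error 0.09, adjusted p = 0.0102). Against wild type the log2 difference was 0.14, with an interval from -0.031 to 0.315.

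Hspb6 stood at 1868, 1679 and 1988 CPM in the knockout ND6 hearts, between the other genotypes and overlapping neither. The mean was 1845 ± 155.5 CPM (SD, n = 3), 1.404-fold lower than in the knockout (edgeR, log2 difference -0.49, standard error 0.10, adjusted p = 0.0222). It was 1.335-fold higher than in wild type (edgeR, log2 difference 0.42, standard error 0.10, adjusted p = 0.0073). Without heart 22 the adjusted p of the last was 0.0513, the highest over 19 alternatives, whose lowest was 0.00094.

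Cryab stood at 2791, 2618 and 3206 CPM in the knockout ND6 hearts, all above the wild type hearts and spread around the knockout hearts. It was 1.45-fold higher than in wild type (edgeR, log2 difference 0.535, standard error 0.09, adjusted p = 0.000433). Between the knockout genotypes its log2 difference was -0.04, with an interval from -0.24 to 0.16.

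Hspb3 stood at 22.7, 28.7 and 25.95 CPM in the knockout ND6 hearts and was 1.24-fold higher than in wild type, where heart 23 with 23.9 CPM overlapped (edgeR, log2 difference 0.315, adjusted p = 0.0475). This call was lost in 10 of 19 alternatives, with adjusted p from 0.0107 to 0.242. Leaving out knockout ND6 heart 21 or 22, or wild type heart 24, 25 or 70, ended it, at 0.242, 0.137, 0.0772, 0.069 and 0.157. Hspb2 stood at 125.6 to 140.1 CPM, overlapping the hearts of both other genotypes.

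The 2 calls between the knockout genotypes rest on few hearts. Left out in turn, hearts 20, 21, 36 and 38 each took Hspb6 past the threshold, with adjusted p of 0.0883, 0.0917, 0.0963 and 0.0807, and hearts 20 and 36 did so for Hspb7, at 0.0825 and 0.0644. The 18 alternatives gave Hspb6 an adjusted p between 1.14e-07 and 0.135, and Hspb7 one between 1.27e-07 and 0.0825. Both lowest values came from limma on single libraries with the count table as a covariate, whose p can be too small. The log2 differences stayed between -0.555 and -0.436 for Hspb6 and between -0.551 and -0.418 for Hspb7.

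**Figure D2:**
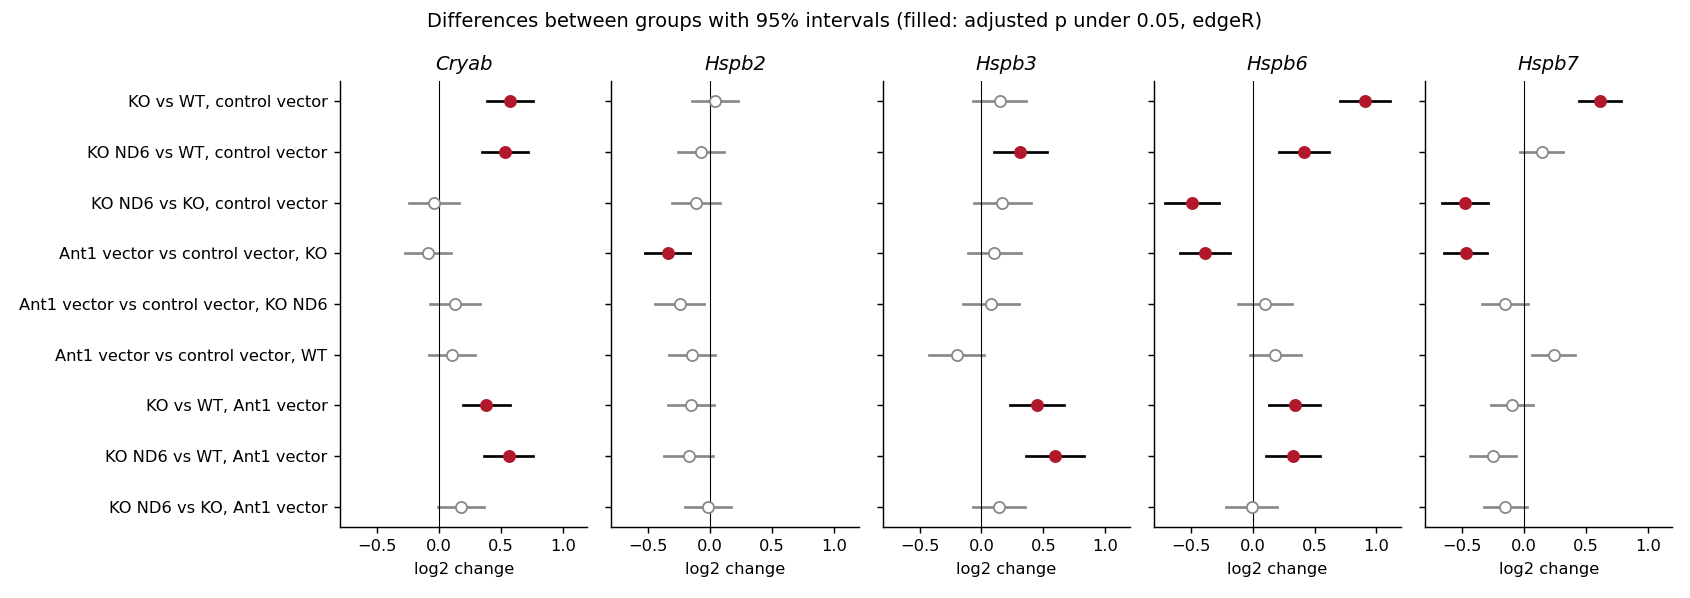
Log2 change (horizontal axis) of each measured small heat shock protein gene in 9 comparisons between groups (rows), with 95% intervals as lines and filled points for an adjusted p under 0.05 in edgeR. Hspb7 shows its called changes in the 3 comparisons that involve the control vector knockout hearts, while Cryab is called in the 4 comparisons of a knockout genotype with wild type.

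The next comparison asked how the Ant1 vector changes the members in knockout hearts. Hspb7, Hspb6 and Hspb2 were lower with the Ant1 vector than with the control vector, by 1.39-fold, 1.31-fold and 1.27-fold. These are 3 of 5 members called lower and none higher, where 3.27% of all genes were called lower and 2.19% higher. None of the 3 overlapped between the vector groups, which held for 9.75% of all genes in that direction. In the groups compared, hearts with the control vector and hearts with the Ant1 vector shared no count table. The vector and the sequencing table therefore cannot be told apart in these vector comparisons. Hearts 61 and 91, kept apart, shared tables with control vector hearts 22 (knockout ND6) and 70 (wild type).

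Hspb7 stood at 3727, 3649, 4002 and 3427 CPM in Ant1 vector knockout hearts 20, 21, 22 and 27, all below the knockout hearts with the control vector. Their mean was 3701 ± 237 CPM (SD, n = 4), against 5130 ± 450.2 CPM (SD, n = 3), a log2 difference of -0.47 with a standard error of 0.08 (edgeR, adjusted p = 0.00472).

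Hspb6 stood at 2204, 1948, 2149 and 1636 CPM in these hearts, again below all hearts with the control vector, and still above the wild type control hearts. The mean was 1984 ± 257 CPM (SD, n = 4), with a log2 difference of -0.385 and a standard error of 0.10 (edgeR, adjusted p = 0.0264).

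Hspb2 stood at 116.7, 111.4, 112.9 and 113.2 CPM with the Ant1 vector, under the lowest control vector heart at 123.9 CPM (edgeR, log2 difference -0.34, standard error 0.09, adjusted p = 0.0282). The level in all 4 hearts was below every wild type heart of either vector. Cryab stood at 3003, 2870, 2941 and 2301 CPM and overlapped the control vector hearts, with a log2 difference of -0.09 and an interval from -0.27 to 0.10. Hspb3 had a log2 difference of 0.10, with an interval from -0.11 to 0.32.

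The calls on Hspb6 and Hspb2 depended on single hearts. For Hspb6 leaving out heart 21, 36 or 38 gave an adjusted p of 0.0503, 0.117 or 0.0925, within a range from 0.00475 to 0.244 over 18 alternatives. For Hspb2 leaving out heart 21, 22, 35 or 38 gave 0.0525, 0.06, 0.104 or 0.135, within a range from 0.00305 to 0.135. Hspb7 lost its call in 1 of 18 alternatives, with libraries a and b of each heart only, at an adjusted p of 0.0615, the highest of a range that began at 2.34e-05.

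In the other genotypes no member was called for the vector. In knockout ND6 hearts edgeR called 0 of 5 members, with 1 at an unadjusted p under 0.05, and DESeq2 called 0, where 1.75% of all genes were called higher and 0.779% lower. Hspb2 was that member, at 109.1, 117.6 and 109.9 CPM in hearts 5, 8 and 37 against 140.1, 125.6 and 133.9 CPM with the control vector, with no overlap (log2 difference -0.25, edgeR adjusted p = 0.151). Hspb6 stood at 1922, 2076 and 1917 CPM and Hspb7 at 3206, 3439 and 3350 CPM in these hearts. Slc25a4 in hearts 5 and 37 stood at 66.7 and 55.6 CPM, against 174 to 241 CPM in knockout hearts with this vector. The part of this lower level in the missing calls was not tested. Heart 8, which had Slc25a4 at the control level, had the highest Cryab, Hspb6, Hspb7 and Hspb2 of the 3 hearts. Leaving it out gave no call for any of the 5.

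In wild type hearts edgeR called 0 of 5 members, with 1 at an unadjusted p under 0.05, and DESeq2 called 0, where 0.117% of all genes were called in either direction. That member was Hspb7, at 4174, 4105 and 3586 CPM in Ant1 vector hearts 80, 81 and 83 against 3092 to 3650 CPM with the control vector. The ranges overlapped, and the log2 difference was 0.24 with an interval from 0.07 to 0.41 (edgeR, adjusted p = 0.257). Hspb6 stood at 1707, 1536 and 1467 CPM, all above the highest wild type heart with the control vector, at 1464 CPM (log2 difference 0.18, edgeR adjusted p = 0.48). Hspb2 had the same direction as in the knockout genotypes, with a log2 difference of -0.146 and an interval from -0.33 to 0.039 (edgeR, adjusted p = 0.553).

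The difference between the vector's change in knockout and in wild type hearts was tested itself, as an interaction. For Hspb7 it was -0.71 on the log2 scale with a standard error of 0.12 (edgeR, adjusted p = 0.0117), the one member of 5 called, where 0.279% of all genes were called lower. The call was lost in 1 of 26 alternatives, with libraries a and b only, at an adjusted p of 0.0525, the highest of a range from 2.15e-05. Wild type heart 80 with the Ant1 vector has only libraries c and d in its group, so it has no library a or b. In a fit of single libraries with the count table as a covariate the Hspb7 interaction was -0.763. For Hspb6 the interaction was -0.57 with a standard error of 0.14 (edgeR, adjusted p = 0.0628). It passed the threshold in DESeq2, at 0.0105, without hearts 27 and 37, at 0.0428, and without Ant1 vector knockout heart 20, at 0.0448, within a range up to 0.201 over 26 alternatives. For Hspb2, called for the vector in knockout hearts only, the interaction was -0.198, with an interval from -0.458 to 0.062 (edgeR, adjusted p = 0.491). For the interaction of knockout ND6 with the vector, edgeR called 0 of 5 members, with 1, Hspb7, at an unadjusted p under 0.05, and DESeq2 called 0, where 0.273% of all genes were called in either direction.

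Among hearts with the Ant1 vector, Cryab, Hspb3 and Hspb6 were higher in the knockout than in wild type and Hspb7 was not. These are 3 of 5 members called higher and none lower, where 5.37% of all genes were called higher and 4.53% lower. Cryab stood at 1933, 2185 and 2268 CPM in wild type hearts 80, 81 and 83, and heart 27, the lowest knockout heart at 2301 CPM, came close to them (edgeR, log2 difference 0.38, standard error 0.09, adjusted p = 0.00929). Hspb3 stood at 19.6, 17.5 and 17.1 CPM in wild type and at 26.6, 24.7, 24.5 and 22.9 CPM in knockout hearts, with no overlap (edgeR, log2 difference 0.45, standard error 0.11, adjusted p = 0.009). Hspb6 was 1.26-fold higher with overlapping hearts (edgeR, adjusted p = 0.033), a call lost in 8 of 19 alternatives.

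Single hearts decided several of these calls. Left-out wild type heart 80 gave Cryab an adjusted p of 0.0668, with a range from 0.000247 to 0.0668. Left-out wild type heart 83 gave Hspb3 0.0566, with a range from 0.00142 to 0.0566, and 1 member called in all. For Hspb6 leaving out knockout heart 20, 21 or 22, or wild type heart 81 or 83, gave 0.093, 0.0539, 0.084, 0.101 and 0.151, with a range from 0.00151 to 0.207. The low ends for Cryab and Hspb6 came from limma on single libraries, whose p can be too small. For Hspb7 the log2 difference between these groups was -0.10, with an interval from -0.27 to 0.08.

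Knockout ND6 hearts with the Ant1 vector also had 3 of 5 members called higher than wild type, where 10.8% of all genes were called higher and 8.71% lower. Cryab stood at 3145, 3205 and 3077 CPM in hearts 5, 8 and 37, above every wild type heart and 1.48-fold higher on average (edgeR, adjusted p = 0.000401). Hspb3 stood at 28.6, 28.5 and 24.6 CPM, above all wild type hearts and 1.51-fold higher (edgeR, adjusted p = 0.00091). Hspb6 was 1.26-fold higher (edgeR, adjusted p = 0.0317). That call was lost without heart 8, 81 or 83, at 0.102, 0.0917 and 0.126, within a range from 0.00171 to 0.314 over 18 alternatives. The low end came from limma on single libraries, whose p can be too small. Hspb7 lay below all wild type hearts of this vector and missed the threshold (edgeR, log2 difference -0.25, adjusted p = 0.0559, from 0.0365 to 0.301 over 18 alternatives). Without wild type heart 83 the adjusted p was 0.0368.

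Between knockout ND6 and knockout hearts with the Ant1 vector edgeR called 0 of 5 members, with 0 at an unadjusted p under 0.05, and DESeq2 called 0, where 1.66% of all genes were called in either direction. The fit of single libraries with the count table as a covariate called 1, Cryab (limma, log2 difference 0.22, adjusted p = 0.0134). The p of that fit can be too small, and edgeR over hearts gave Cryab an adjusted p of 0.329. The difference of Hspb6 was -0.01, with an interval from -0.21 to 0.20, and that of Hspb7 was -0.15, with an interval from -0.33 to 0.02.

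Ordered by group mean, Cryab ran from 1981 CPM in wild type control hearts through 2129 in wild type Ant1 vector hearts to 2779, 2871, 2951 and 3142 CPM in the 4 knockout groups, whose neighbours in this order overlapped in their hearts. Hspb6 ran from 1382 and 1570 CPM in wild type hearts of the 2 vectors through 1845, 1972 and 1984 CPM to 2591 CPM in knockout control hearts, which stood apart from the next group. Hspb7 had 5 groups between 3332 and 3955 CPM and knockout control hearts alone at 5130 CPM. Hspb3 ran from 18.1 CPM in wild type Ant1 vector hearts to 27.3 CPM in knockout ND6 Ant1 vector hearts, with wild type groups lowest. Hspb2 was lowest with the Ant1 vector in both knockout genotypes, at 112.2 and 113.5 CPM, and ran up to 144.1 CPM in knockout control hearts, whose hearts overlapped those of both other control groups.

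Hearts 61 and 91, the knockout ND6 hearts whose treatment label and title code disagree, had Slc25a4 at 169 and 151 CPM. They had Cryab at 2976 and 2601 CPM, Hspb6 at 1764 and 2091 CPM, Hspb7 at 3637 and 4150 CPM, Hspb2 at 110.9 and 109.8 CPM and Hspb3 at 23.2 and 23.7 CPM. Their Hspb2 lay below all hearts with the control vector, and their other members lay within or close to the ranges of the knockout ND6 groups. Their Slc25a4 lay above the control vector hearts of both knockout genotypes, which had at most 2.03 CPM. Knockout ND6 control vector heart 22, in the same count tables, had Hspb2 at 133.9 and Hspb3 at 25.95 CPM. Its Cryab was 3206, its Hspb6 1988 and its Hspb7 4099 CPM. Differences from this single heart were not tested.

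Since reads of different genes in the same heart share its depth and scaling, the ratio of a pair of members does not depend on the scaling factor. Cryab gave 14.2 ± 1.29 reads per Hspb2 read (SD, n = 4) in wild type control hearts, 20.7 ± 2.77 (SD, n = 3) in knockout and 21.6 ± 2.11 (SD, n = 3) in knockout ND6 hearts. With the Ant1 vector the ratio was 17.0 ± 2.72 (SD, n = 3), 24.5 ± 2.76 (SD, n = 4) and 28.0 ± 0.787 (SD, n = 3) in the same order. Within each vector all hearts of both knockout genotypes stood above all wild type hearts for this pair of neighbouring genes. For the knockout against wild type with the control vector the two-sided exact permutation p was 0.0286, the smallest that 3 against 4 hearts allow, and 0.129 after Benjamini-Hochberg adjustment over the 27 ratio tests made.

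Within each vector, Cryab per Hspb7 read was higher in all knockout ND6 hearts than in all knockout hearts. The ratio was 0.594 ± 0.0563 (SD, n = 4) in wild type and 0.58 ± 0.08875 (SD, n = 3) in knockout control hearts, which overlapped, and 0.777 ± 0.0441 (SD, n = 3) in knockout ND6 control hearts, above all of them. With the Ant1 vector it was 0.750 ± 0.0601 (SD, n = 4) in knockout hearts, which overlapped the knockout ND6 control hearts. It reached 0.944 ± 0.0329 (SD, n = 3) in knockout ND6 hearts with the Ant1 vector, above every other heart. Hspb6 per Hspb7 read was 0.414 ± 0.0295 (SD, n = 4) in wild type, 0.507 ± 0.0545 (SD, n = 3) in knockout and 0.501 ± 0.0418 (SD, n = 3) in knockout ND6 control hearts. The lowest adjusted p over the 27 exact permutation tests of ratios was 0.129, so none passed. The exact p cannot fall below 0.0286 for 3 against 4 hearts or 0.1 for 3 against 3. After adjustment these tests could hardly pass, so their outcome decides little.

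**Figure D3:**
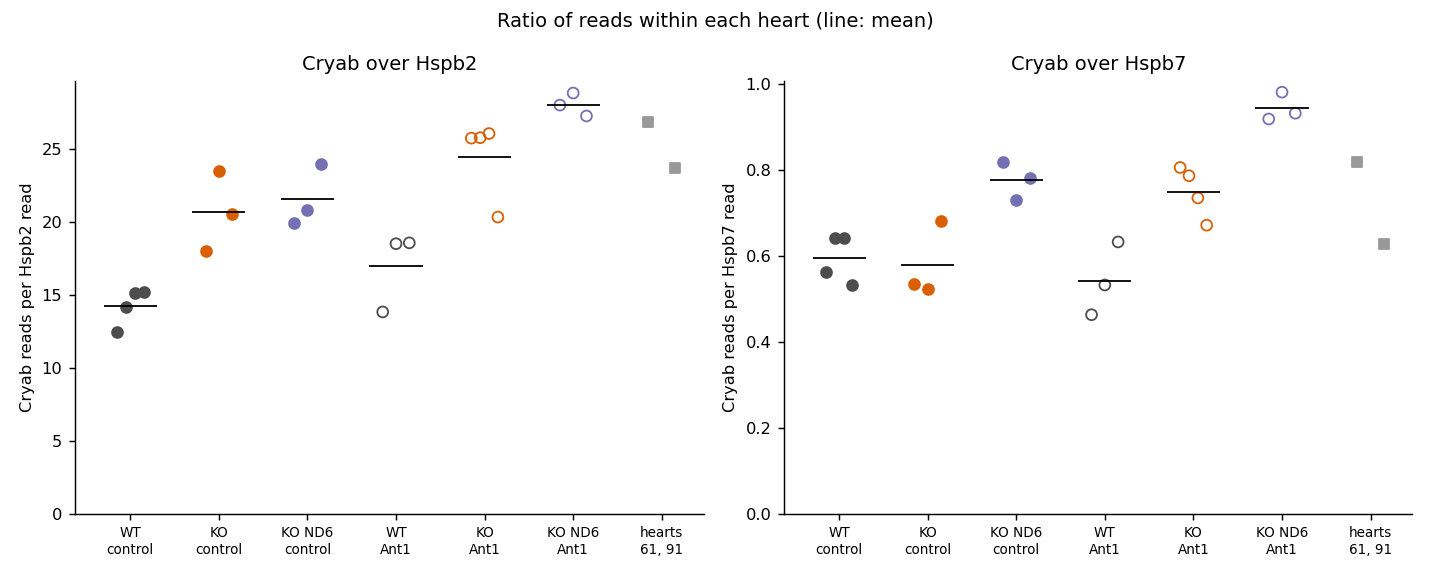
Reads of Cryab per read of Hspb2 (left) and per read of Hspb7 (right), on axes from 0, in single hearts (points) by genotype and vector, with the group mean as a line. On the left both knockout genotypes stand above wild type within each vector, and on the right knockout ND6 hearts with the Ant1 vector are highest, at a mean of 0.944.

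Across the 22 hearts, which share groups, tables and scaling, Hspb6 went with Cryab (Pearson r = 0.79) and with Hspb7 (r = 0.70) in log2 CPM, while Cryab and Hspb7 had r = 0.24. After subtracting group means, r was 0.64 for Hspb6 with Hspb7, 0.43 for Hspb6 with Cryab and 0.04 for Cryab with Hspb7. Cryab and Hspb3 had r = 0.70 over all hearts and 0.05 within groups. These are descriptions over 22 hearts.

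By the same measure the 3 genes most like Cryab were Acta1, the skeletal alpha-actin gene (r = 0.96, and 0.75 within groups), Cox19, an assembly factor of cytochrome c oxidase (0.95), and 5830418P13Rik (0.93). Those most like Hspb6 were Coa5 (0.91), Nelfcd (0.905) and Tbrg4 (0.90), and those most like Hspb7 were Celf1, an RNA-binding splicing regulator (0.85), Cdc14b and Diaph1 (both 0.82). Those most like Hspb3 were Ogfod2 (0.90), Adssl1 (0.89) and Coq6 (0.86). Those most like Hspb2 were Tmem55a, Glrx (both 0.83) and Polr2d (0.82). Within groups these likenesses were weaker, with r from 0.37 for Tbrg4 to 0.814 for Ogfod2.

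**Figure D4:**
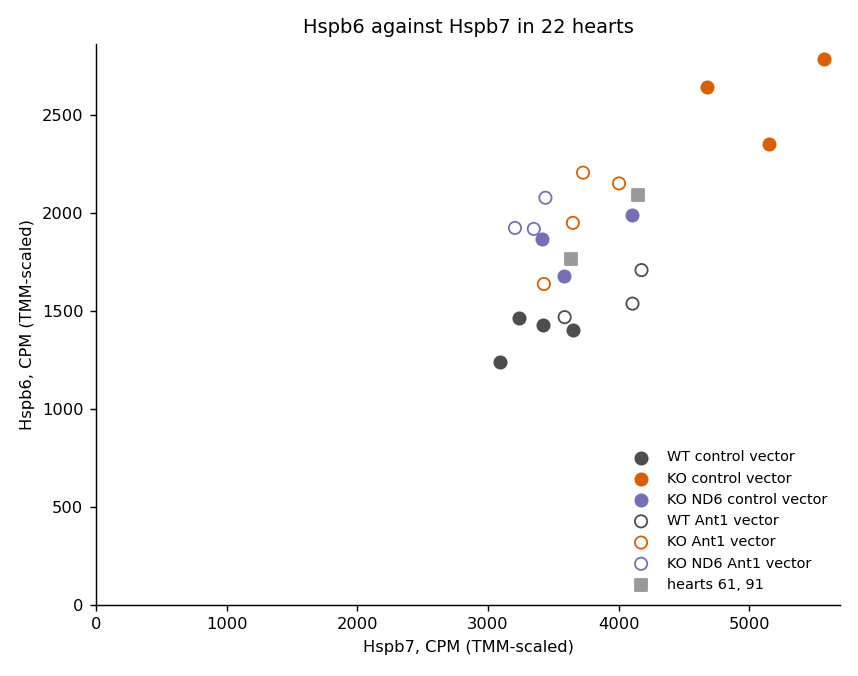
CPM of Hspb6 (vertical axis) against CPM of Hspb7 (horizontal axis), both from 0, in the 22 hearts, with filled points for the control vector, open points for the Ant1 vector and squares for hearts 61 and 91. The 3 control vector knockout hearts stand apart at the upper right, and wild type hearts lie lower than the other hearts of like Hspb7.

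The count tables were checked as a possible batch, since each heart lies in 1 set of tables. In the tables that held both, knockout heart 35 against wild type hearts 23, 24 and 25 gave 1.71-fold for Hspb6, 1.58-fold for Hspb7 and 1.38-fold for Cryab. In another set of tables, knockout ND6 heart 22 against wild type heart 70 gave 1.65-fold for Cryab, 1.42-fold for Hspb6, 1.54-fold for Hspb3 and 1.12-fold for Hspb7. In a further set, knockout ND6 hearts 20 and 21 had Hspb6 at 1774 CPM and Hspb7 at 3496 CPM on average, against 2711 and 5122 CPM in knockout hearts 36 and 38. The called differences between genotypes with the control vector thus had the same direction within tables, over 1 to 3 hearts a side.

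With the Ant1 vector, knockout heart 20 against the 3 wild type hearts of its tables gave 1.41-fold for Cryab, 1.47-fold for Hspb3, 1.404-fold for Hspb6 and 0.942-fold for Hspb7. No table held both wild type and knockout ND6 hearts with that vector. Between libraries of 1 heart the median coefficient of variation was 6.14% for Cryab, 6.54% for Hspb2, 12.0% for Hspb3, 7.7% for Hspb6 and 7.22% for Hspb7. Hspb3, the member with the fewest reads, varied most. In heart 27 it was as high as 28.9% for Hspb6, whose libraries averaged 1344 CPM in one table and 1803 CPM in the other. In heart 37 the same gene averaged 1547 and 2353 CPM in these tables.

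The members' partners and clients, taken from lists chosen with earlier results of these data known, were counted beside them. Of 16 filament and Z-disc clients 6 were higher and 3 lower in knockout than in wild type control hearts, where 8.19% of all genes were called higher and 6.23% lower. Their median log2 change was 0.19, against -0.03 over all genes tested. Des, the desmin filament bound by Cryab, stood at 2392 to 2983 CPM in wild type and at 3422 to 3569 CPM in knockout hearts, 1.33-fold higher and with no overlap (edgeR, adjusted p = 0.000429). Myot, the Z-disc protein myotilin, rose 2.67-fold (adjusted p = 0.000723), Csrp3, the muscle LIM protein, rose 1.31-fold (adjusted p = 0.00333), and Vim, the filament of non-muscle cells, fell 1.39-fold (adjusted p = 0.00312). Flnc, which encodes filamin C, was 1.7-fold higher with no overlap (edgeR, adjusted p = 0.00835).

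In knockout ND6 control hearts 3 of 16 clients were higher and 1, Vim, lower than in wild type, with Des at 1.26-fold, Myot at 2.14-fold and Flnc, the filamin bound by Hspb7, at 1.53-fold higher (edgeR, adjusted p = 0.00322, 0.00712 and 0.0346). Over all genes 6.71% were higher and 5.97% lower, and the median log2 change was -0.008 for the clients and -0.01 for all genes. Between the knockout genotypes edgeR and DESeq2 called 0 of the 16, with 4 at an unadjusted p under 0.05. In knockout hearts with the Ant1 vector the median log2 change of the clients was -0.03, against 0.014 for all genes, of which 2.19% were called higher and 3.27% lower. Among clients called, Tcap, the titin cap, fell 1.68-fold, Pdlim5 fell 1.46-fold and Csrp3 fell 1.23-fold (edgeR, adjusted p = 0.00592, 0.00259 and 0.04). With the Ant1 vector Pdlim5 was also lower in wild type hearts, at 684.5 to 741.3 against 796.2 to 934.7 CPM, though not called. The same held in knockout ND6 hearts for direction, at 614.7 to 684.7 against 784.4 to 865.3 CPM. In wild type hearts Tcap and Csrp3 averaged 4138 and 2591 CPM with the control vector and 4199 and 2655 CPM with the Ant1 vector.

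Of 9 partners in chaperone-assisted autophagy, the pathway that clears damaged Z-disc proteins, 6 were measured. In knockout against wild type control hearts edgeR and DESeq2 called 0, with 1 at an unadjusted p under 0.05. In knockout ND6 against wild type control hearts 3 were higher, where 6.71% of all genes were called higher and 5.97% lower. Bag3, the co-chaperone that links small heat shock proteins to Hsp70, stood at 3.48 to 6.62 CPM in wild type and at 6.02 to 10.97 CPM in knockout ND6 control hearts (1.65-fold, edgeR adjusted p = 0.0365). In knockout hearts it averaged 4.95 ± 1.01 CPM (SD, n = 3) with the control vector and 10.3 ± 2.04 CPM (SD, n = 4) with the Ant1 vector, 2.08-fold higher (edgeR, adjusted p = 0.0123). In wild type hearts Bag3 averaged 4.86 ± 1.32 CPM (SD, n = 4) with the control vector and 7.60 ± 1.28 CPM (SD, n = 3) with the Ant1 vector. It was not called there, nor in the interaction of knockout with vector. Sqstm1, the autophagy receptor p62, was 1.43-fold higher in knockout ND6 than in wild type control hearts (edgeR, adjusted p = 0.00198), and Hspa4 was 1.29-fold higher (adjusted p = 0.0147).

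Of 15 genes of the heat shock response 11 were measured, and 2 of them were higher in knockout ND6 than in knockout control hearts. In that comparison 0.539% of all genes were called higher and 0.519% lower. Hspa1b, an inducible Hsp70 gene, stood at 31.4 to 57.2 CPM in knockout ND6 control hearts, against 3.60 to 9.62 CPM in knockout hearts, 6.32-fold higher (edgeR, adjusted p = 0.000967), where Hspb6 and Hspb7 were lower. Hspa1a, its near-identical copy, was 5.62-fold higher (adjusted p = 0.00846), and because the copies are nearly the same, the split of reads between them is uncertain. With the Ant1 vector in knockout ND6 hearts Hspa1b fell 8.22-fold (adjusted p = 0.000164). In knockout against wild type control hearts 2 of the 11 were higher, where 8.19% of all genes were called higher and 6.23% lower. They were Ahsa1 at 1.38-fold (edgeR, adjusted p = 0.00308) and Hspe1 at 1.26-fold (adjusted p = 0.0493). Hsf1, the factor itself, stood at 61.9 to 65.8 CPM in wild type and at 61.9 to 76.8 CPM in knockout control hearts.

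Of 10 kinases and phosphatases that act on small heat shock proteins 9 were measured. Mapkapk2, the kinase of Hspb1 and Cryab, was 1.33-fold higher in knockout than in wild type control hearts (edgeR, adjusted p = 0.0284). The other 8 were not called, where 8.19% of all genes were called higher and 6.23% lower. In knockout ND6 hearts Akt1 was 1.38-fold higher and Mapk14 was 1.21-fold lower than in wild type with the control vector (edgeR, adjusted p = 0.00226 and 0.0322). Of 3 other genes of the family, Hspb9, a testis gene, stood at 1.11 to 2.41 CPM in all grouped hearts, while Cryaa, the lens crystallin, and Odf1, a sperm tail gene, had at most 0.248 and 0.0629 CPM.

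**Figure D5:**
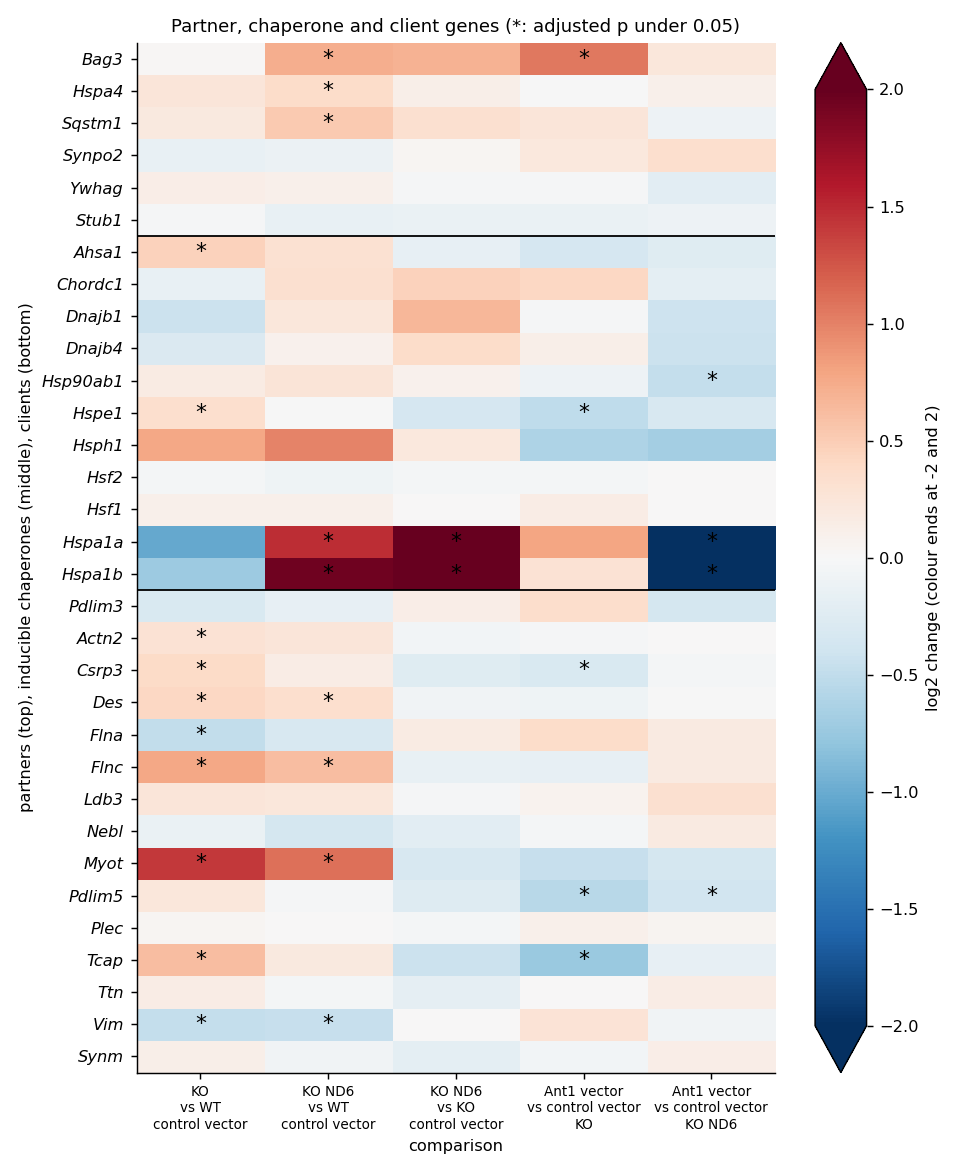
Log2 change (colour, ending at -2 and 2) of measured autophagy partners (top), heat shock response genes (middle) and filament and Z-disc clients (bottom) in 5 comparisons (columns), with a star for an adjusted p under 0.05 in edgeR. Hspa1a and Hspa1b carry the darkest colours, red in knockout ND6 against knockout hearts and blue with the Ant1 vector in knockout ND6 hearts, where Hspb6 and Hspb7 were not called.

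Bulk hearts hold several cell types, and fewer cells of a type and less RNA per cell cannot be told apart. Of 10 cardiomyocyte markers edgeR and DESeq2 called 0 between knockout and wild type control hearts, with 3 at an unadjusted p under 0.05. Their sum was 91090 to 94230 CPM in knockout and 82670 to 94330 CPM in wild type hearts. In knockout ND6 control hearts 1 of the 10, Mybpc3, was 1.76-fold higher than in wild type and 1, Atp2a2, was 1.28-fold lower (edgeR, adjusted p = 0.000532 and 0.00317). Of all genes 6.71% were called higher and 5.97% lower there. Atp2a2 was also 1.29-fold lower than in knockout control hearts. With the Ant1 vector in knockout hearts Tnni3 was 1.24-fold higher and Pln 1.61-fold lower (edgeR, adjusted p = 0.0219 and 0.00899), and in knockout ND6 hearts Myh6 was 1.49-fold higher. Against wild type hearts with that vector, Mybpc3 was higher and Ryr2 lower in the knockout, and in knockout ND6 hearts Mybpc3 and Myh6 were higher and Atp2a2, Ryr2 and Tnni3 lower. Between the knockout genotypes with that vector Mybpc3 was higher and Tnni3 lower in ND6 hearts. The part of these markers in the members' differences was not tested. Of 8 fibroblast markers 5 were lower in knockout than in wild type control hearts, where 8.19% of all genes were called higher and 6.23% lower. The 8 markers summed to 1732 to 2162 CPM in knockout against 2659 to 2786 CPM in wild type hearts. Gsn at 1.67-fold and Dpt at 1.57-fold lower led the list (edgeR, adjusted p = 5.7e-07 and 0.000189). In the same comparison 2 of 7 smooth muscle and pericyte markers were lower, Cnn1 2.52-fold and Kcnj8 1.31-fold, as was 1 of 6 adipocyte markers, Ucp1, and 1 of 6 endothelial markers, Cdh5, was 1.24-fold higher (edgeR, adjusted p = 0.00424, 0.0221, 0.00168 and 0.029). The part of these lists in the members' differences was not tested. With the Ant1 vector in knockout hearts the fibroblast sum was 2011 to 2401 CPM, and 1 marker, Gsn, was 1.26-fold higher (edgeR, adjusted p = 0.0126). Of all genes 2.19% were called higher and 3.27% lower there. Skeletal muscle markers, 9 genes that include Myh4 and Mylpf, summed to 15.7 to 57.3 CPM in all groups. In knockout against wild type control hearts 1 of the 9 was called higher and 0 lower, with a median log2 change of -0.554. That gene, Ryr1, was 6.91-fold higher (edgeR, adjusted p = 0.00268), at low means of 1.36 and 0.193 CPM. Mylpf, Myh1 and Tnnt3 were higher in knockout ND6 than in wild type hearts with the Ant1 vector (edgeR, adjusted p = 0.042, 0.00892 and 0.0208). For Myh1 and Tnnt3 the highest heart of that knockout ND6 group had 7.96 and 18.5 CPM, against group medians of 0.0736 and 2.01 CPM. Liver markers summed to 0.681 to 190.3 CPM in wild type control hearts and to at most 2.6 CPM in the other groups, and their part was not tested. The 4 atrial markers summed to 1275 to 4529 CPM in knockout ND6 hearts with the Ant1 vector and to 4803 to 5322 CPM in wild type hearts with that vector, where Myl7 and Sln were 2.57-fold lower (edgeR, adjusted p = 0.005 and 0.00286). The endothelial markers summed to 666 to 723 CPM and 528.6 to 597.1 CPM in these groups, with Kdr, Cdh5 and Tie1 higher and Emcn lower in knockout ND6 hearts. Their part in the differences between these groups was not tested.

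Genes within 50000 bases of the members were read for the control vector hearts, and those named here were chosen after their values were seen. Of 19 neighbours tested, with the members themselves left out, 4 were higher and 3 lower in knockout than in wild type hearts, beside 8.19% and 6.23% of all genes. In knockout ND6 hearts 2 were higher and 2 lower than in wild type, beside 6.71% and 5.97% of all genes. Between the knockout genotypes edgeR called 0 of the 19, with 4 at an unadjusted p under 0.05, and DESeq2 called 2. In knockout against wild type hearts 2310030G06Rik, which overlaps the RefSeq span of Cryab, was higher (edgeR, log2 difference 0.83, adjusted p = 0.000787). So was Lin37, which overlaps the end of Hspb6 (edgeR, log2 difference 0.39, adjusted p = 0.0194). Whether their amplicons read the members' transcripts was not tested.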

How the data were processed

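The deposited tables held raw read counts per amplicon from AmpliSeq libraries of mouse heart, per the file headers and labels' protocols, and the reads were placed on mm10 per the submitters' processing notes. The aligner and counter: not given in the sources used here. In all, 14 tables hold 112 libraries of 2893780 to 8531273 reads. Of these, 110 were summed into 22 hearts by title number, and 27 gene symbols that had turned into dates were restored. Another 3 samples, of single nuclei, were left out as another assay.

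Genes were kept by filterByExpr, scaled by TMM (factors 0.959 to 1.058) and tested with edgeR 4.0.16 quasi-likelihood contrasts over all groups in R 4.3.3, with Benjamini-Hochberg adjustment over 15403 genes and a threshold of 0.05. Standard errors were derived from the F statistic, and logged CPM used a prior count of 2. Alternatives used DESeq2 1.42.0, limma 3.58.1 on single libraries with the table as covariate (within-heart correlation 0.176, so p can be too small), other scalings and filters, and left-out hearts. The fits were tested on simulated data. Members and lists were chosen with earlier results of these data known. Named are all members, up to 4 called genes per list and comparison with the smallest adjusted p, Slc25a4, and the 3 genes most like each member. Beyond this, 5 called cardiomyocyte markers are named for knockout ND6 against wild type hearts with the Ant1 vector. Flnc is also named for knockout against wild type control hearts, and some list genes are named where they were not called. A result on 1 list gene is not reported here.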

Additional observations from a re-analysis of the deposited data

Results flagged for a closer look

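Hspb7 differed in its change with the Ant1 vector between knockout and wild type hearts, with an interaction of -0.711 on the log2 scale (edgeR, adjusted p = 0.0117). Hearts 61 and 91 were kept out of the groups compared, except in alternatives. Their treatment label names the control vector, while their title code is that of Ant1 vector hearts. Both stood above all wild type control hearts for Cryab, at 2976 and 2601 CPM, and for Hspb6, at 1764 and 2091 CPM.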

How the results depend on the processing

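Over 1080 values of single members under alternatives, 994 kept their direction and side of the threshold, 25 kept the side but changed sign without a call, 51 lost a call, 10 gained one and 0 called values changed sign. Of 55 member results, 10 that were not called changed sign under some alternative. Other scalings moved the median log2 change of all genes by at most 0.058. With libraries a and b only, the number of members called fell to 0 between the knockout genotypes with the control vector, to 0 for the vector in knockout hearts and to 0 for the interaction of knockout with vector. Wild type Ant1 vector heart 80 has no library a or b in its group, so this setting differs in more than depth. With hearts 61 and 91 placed with the control vector, Hspb3 in knockout ND6 against wild type control hearts was not called (edgeR, log2 difference 0.257, adjusted p = 0.0535), nor was it with both placed with the Ant1 vector (0.311, adjusted p = 0.0617), so that 2 members were called. Hspb7 in knockout ND6 against wild type hearts with the Ant1 vector was called with both in the control group (-0.261, adjusted p = 0.0415). With only the compared groups in the fit, 1 member was called for the vector in knockout hearts and 1 in knockout against wild type hearts with the Ant1 vector. The interaction of knockout with vector had 2 members called by DESeq2 and 2 without hearts 27 and 37. With the table as covariate in limma on single libraries, whose p can be too small, 1 was called between the knockout genotypes with the Ant1 vector. Leaving out 1 heart at a time gave 1 to 3 members called in knockout ND6 against wild type control hearts, 0 to 2 between the knockout genotypes with the control vector, 1 to 3 for the vector in knockout hearts, 1 to 3 in knockout against wild type hearts with the Ant1 vector and 1 to 2 for the interaction of knockout with vector. The vector comparisons could not be fitted with the table as covariate. No paired analysis was possible because the groups compared share no heart number. With 3 or 4 hearts a group and no month per heart, differences with age were not tested.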

Other observations

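Libraries 80a and 80b have labels that name the control vector and a title code like that of Ant1 vector hearts, so they were put in no group. An alternative that added them to heart 80 called Hspb7 lower in knockout ND6 than in wild type hearts with the Ant1 vector (edgeR, log2 difference -0.253, adjusted p = 0.049). They had Cryab at 1789 and 2090 CPM as lowest and highest, Hspb6 at 1677 and 1779 CPM and Hspb7 at 4124 and 4480 CPM, scaled by library total. Hspb2 stood at 130.9 and 145.2 CPM and Hspb3 at 19.7 and 20.1 CPM.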
